A study of Mus musculus with 6 samples.

Results

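Amino acid transporters of the solute carrier (SLC) families 1, 3, 6, 7, 36, 38 and 43 were examined in mouse CD4+ T cells that were activated towards Th1 with or without ALX-5407. The members were all genes of the count table whose symbol is Slc followed by 1a, 3a, 6a, 7a, 36a, 38a or 43a and a number, which gave 61 of 54532 genes. The cells came from spleens of male C57BL/6 mice aged 6 to 8 weeks, were isolated by negative selection on magnetic beads, and were activated with anti-CD3 and anti-CD28 in medium with IL-2, IL-12p70 and anti-IL-4, so that every culture of both groups carried the full Th1 stimulus. In 3 cultures ALX-5407, which blocks the glycine carrier GlyT1 (encoded by Slc6a9), was present at 500 nM, and the other 3 had vehicle (0.1% DMSO). The design text gives an exposure of 72 h, the whole time in culture. The paper's methods for RNA sequencing give a shorter one, whereas its methods for cell culture have the cells harvested after 72 h of stimulation. A figure legend of the paper has treated cells cultured for 3 days before RNA was extracted. RNA was captured on poly-T beads according to the labels and depleted of ribosomal RNA according to the methods. The cultures with vehicle are called Th1 here, and those with the inhibitor ALX-5407.

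Amino acids cross membranes mainly through such carriers. The SLC1 family holds sodium-coupled carriers of glutamate and aspartate and the neutral amino acid exchangers Slc1a4 and Slc1a5. SLC38 includes sodium-coupled carriers of glutamine and other neutral amino acids. SLC6 includes carriers that couple uptake to sodium and chloride, and SLC36 includes carriers that move small amino acids with protons. Most SLC7 carriers of the LAT type are light chains that reach the cell surface only when bound to a heavy chain of the SLC3 family, Slc3a2 (CD98) in T cells, and they exchange one amino acid for another. SLC7 carriers of the CAT type work without a heavy chain and bring in arginine and lysine, and the SLC43 carriers LAT3 and LAT4 let large neutral amino acids pass in either direction. Activated T cells are known to raise uptake of leucine, glutamine and other amino acids through Slc7a5 and Slc1a5. Several of these transporter genes are known targets of ATF4, the transcription factor that cells make when amino acids are scarce.

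Library totals lay between 30801753 and 36727788 counts. The T cell genes Cd3e, Cd3g, Cd4, Cd28, Trac, Tbx21 and Ifng summed to between 2486 and 2707 CPM (a gene's counts relative to its library's total, scaled by TMM factors) in Th1 and between 2300.0 and 2354 CPM in ALX-5407, with 2 of the 7 higher and 3 lower in the edgeR test described below. Of the B cell markers, Ms4a1 was at 0.654 ± 0.154 CPM in Th1 and 1.58 ± 0.286 CPM in ALX-5407, Cd79a at 1.52 ± 0.181 and 2.42 ± 0.646 CPM, and Pax5 at 2.15 ± 0.480 and 4.02 ± 0.830 CPM (SD, n = 3 each). These 3 were higher in the test, Cd79b did not pass, and none of the 4 was at 0 in any library. CD8 markers summed to between 9.25 and 9.59 CPM against 6.71 to 8.87 CPM, with Cd8a lower and Cd8b1 not passing the test. Of 6 myeloid markers only Cst3 was high enough to be tested, and it was lower, and of 4 NK markers only Eomes, which was higher. The lists summed to between 47.5 and 49.5 CPM in Th1 and 37.9 and 44.4 CPM in ALX-5407 for myeloid genes, and to between 1.92 and 3.41 CPM in Th1 and 4.96 and 5.58 CPM in ALX-5407 for NK genes. Cst3 (means 47.8 and 40.7 CPM) and Eomes (2.495 and 5.17 CPM) made up nearly all of these sums. The NK markers Klrb1c, Ncr1 and Klra8 had lower means in ALX-5407. Of the scarce myeloid markers, Lyz2 and Csf1r had higher means there, and Adgre1, Cd14 and Fcgr3 lower ones. Adgre1 was at 0 in every library but 1. The erythroid gene Alas2 did not pass the test, and Hbb-bs, Hbb-bt and Hba-a1 had at most 6 reads in any library. The part of these cells in the results below was not tested, and in bulk RNA fewer cells of a type and less RNA per cell cannot be told apart.

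Of the 61 transporter genes, 26 had enough reads to be tested. Another 17 had 0 counts in all 6 libraries, and the remaining 18 had at most 17 counts in any library. The genes without a count included Slc6a5, which encodes GlyT2, the other dedicated glycine carrier, along with the proline carrier Slc6a7, the glutamine carrier Slc38a5, the broad neutral and cationic carrier Slc6a14 and the GABA and betaine carriers Slc6a11 and Slc6a12. A count of 0 allows up to 3 counts in a library, which corresponds to between 0.0803 and 0.0974 CPM (counting error only), so these genes were not detectable at this depth. By family, 7 of 15 SLC7 members were tested, 7 of 11 SLC38 members, 3 of 19 SLC6 members, 3 of 4 SLC36 members, 3 of 3 SLC43 members, 2 of 7 SLC1 members and 1 of 2 SLC3 members. Every tested gene had at least 11 counts in each Th1 library, so none of them entered the test through the treated group alone.

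In ALX-5407-treated cells, 15 of the 26 tested transporter genes rose, 2 fell and 9 did not pass edgeR's quasi-likelihood test at an adjusted p-value under 0.05, adjusted by Benjamini-Hochberg over all 15938 genes tested. Among all genes tested, 24.5% were higher and 23.2% were lower by the same rule, so 15 of 26 higher (57.7%) lay above that background and 2 of 26 lower lay below it. The median log2 fold change of the 26 genes was 0.42, beside 0.005 over all genes tested. With the further requirement of an absolute log2 fold change over 1, 5 transporter genes were higher (Slc7a11, Slc7a3, Slc7a5, Slc6a9 and Slc1a4) and 0 were lower in edgeR, against 3.36% and 6.68% of all genes tested. The count of lower genes past that fold was also 0 at an unadjusted p under 0.05, in DESeq2 and in limma-voom, whereas with no filter on low counts it was 2 (Slc38a4 and Slc6a13), and 4 genes instead of 2 were lower at an adjusted p-value under 0.05. The libraries of both groups did not overlap for 19 of the 26 genes, where 55.5% of all genes tested did not overlap. All 17 calls kept their direction and an adjusted p-value under 0.05 in each of the 13 other settings tried, among them DESeq2, limma-voom and each library left out in turn. Of the 333 Slc genes outside the rule, 203 could be tested, and 60 of those rose (29.6%) while 45 fell (22.2%). Their median log2 fold change was 0.046.

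**Figure D1:**
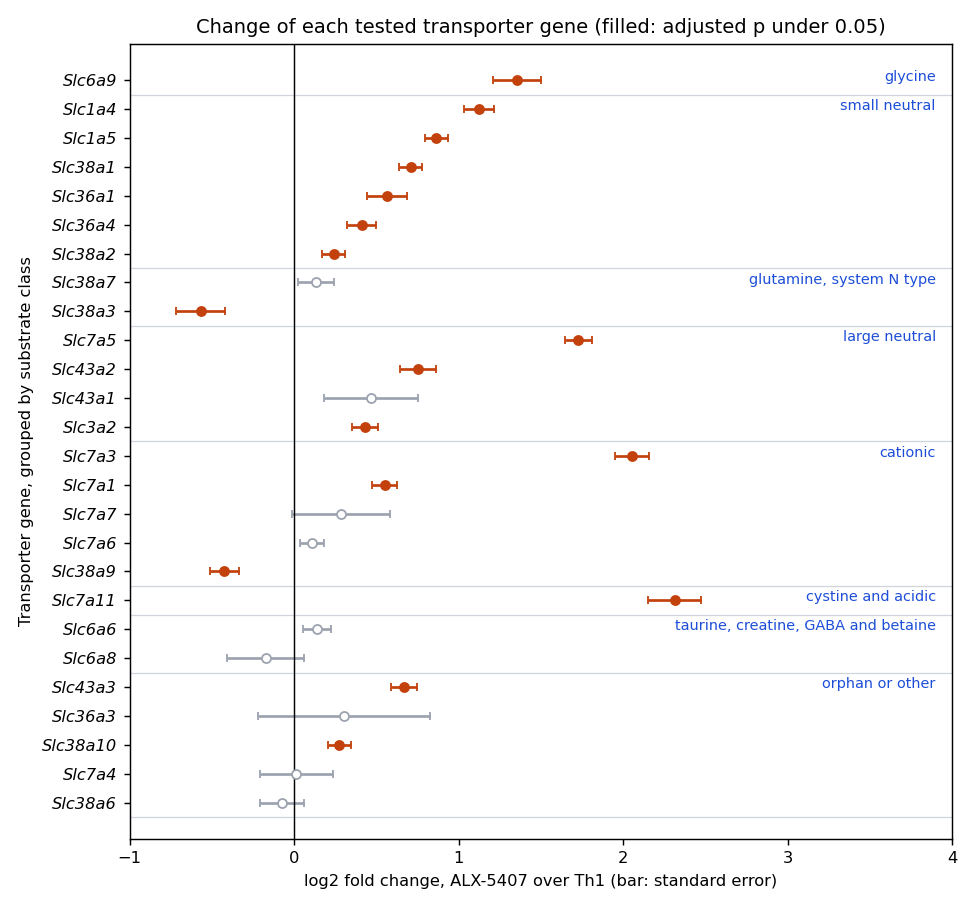
Log2 fold change of each of the 26 tested transporter genes (ALX-5407 over Th1, horizontal axis) with its standard error, grouped by the class of substrate on the right; filled points passed edgeR's test at an adjusted p-value under 0.05. All 6 tested small neutral carriers lie above 0 and passed, Slc7a11, Slc7a3 and Slc7a5 lie farthest to the right, and Slc38a3 and Slc38a9 are the only filled points below 0.

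Slc6a9, the target of ALX-5407, lies on chromosome 4 from 117834506 to 117875198 on the + strand (GRCm38). It had 227, 214 and 146 reads in the Th1 libraries and 530, 570 and 600 in the ALX-5407 libraries. These correspond to 6.97, 6.83 and 4.74 CPM without and 15, 15.3 and 17.1 CPM with the inhibitor, and the groups did not overlap. The change was 2.55-fold (log2 fold change 1.35, standard error 0.146, adjusted p = 1.49e-06 in edgeR). Per kilobase of gene length Slc6a9 was nonetheless a minor transcript, at 1.202 ± 0.242 CPM per kilobase in Th1 and 3.07 ± 0.223 in ALX-5407 (SD, n = 3 each). By this level it had rank 19 of the 61 genes in Th1, where it overlapped with Slc38a6 below it. In ALX-5407 it had rank 16, between Slc38a7 and Slc36a1, and its libraries overlapped with neither. Exons of opposite-strand genes share 30.3% of the exon bases of Slc6a9. Of these genes B4galt2 had the most reads, up to 143 in a library, and the strand setting of the counting is not given in the sources used here.

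The large neutral class held the most abundant transcripts. Slc7a5 (LAT1), the light chain that carries leucine, isoleucine, phenylalanine, methionine and tryptophan, lies on chromosome 8 from 121881150 to 121907694 on the - strand. It stood at 293.6, 278.3 and 239 CPM in the Th1 libraries and at 889.3, 915.9 and 880.8 CPM in the ALX-5407 libraries. The third Th1 library was the lowest, and even the highest Th1 library was far under every treated one. The change was 3.31-fold (log2 fold change 1.73, standard error 0.0816, adjusted p = 2.34e-10 in edgeR), and with 1 library left out it ranged from 1.63 to 1.78. Its heavy chain Slc3a2, on chromosome 19 from 8706882 to 8723369 on the - strand, rose less, from 295.8, 278.4 and 246.7 CPM to 376.3, 377.8 and 351.5 CPM (log2 fold change 0.43, standard error 0.0777, adjusted p = 0.000254 in edgeR). Slc43a2 (LAT4), a uniporter of large neutral amino acids that needs no heavy chain, went from 30.7, 28.5 and 21.4 CPM to 45.2, 47.7 and 43 CPM, a log2 fold change of 0.75 (adjusted p = 3.70e-05 in edgeR), and shares 9.18% of its exon bases with opposite-strand Gm45606, which had at most 94 reads in a library. Its relative Slc43a1 (LAT3) was scarce, with 38 to 58 reads in the Th1 and 50 to 94 in the ALX-5407 libraries. Its groups overlapped, and the log2 fold change of 0.47 had a standard error of 0.286 (adjusted p = 0.196 in edgeR). The other large neutral carriers had at most 10 reads in a library, including Slc7a8 (LAT2), and Slc6a15, Slc6a18 and Slc7a12 had none.

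Since Slc7a5 needs Slc3a2 to reach the membrane, both were compared within each library, per kilobase of gene length. The level of Slc7a5 was 0.945, 0.951 and 0.922 times that of Slc3a2 in the Th1 libraries, and 2.25, 2.31 and 2.38 times in the ALX-5407 libraries. Per kilobase, the RNA levels of the pair were thus about equal without the inhibitor, and Slc7a5 was above Slc3a2 in every culture with it. The lengths used join the exons of all annotated transcripts, 3 of Slc7a5 and 9 of Slc3a2. The size of each ratio therefore depends on these lengths, whereas its relative change between the groups does not. All light chains that pair with Slc3a2 (Slc7a5, Slc7a6, Slc7a7, Slc7a8, Slc7a10 and Slc7a11) summed to 1.09 ± 0.00746 times Slc3a2 in Th1 and 2.44 ± 0.0791 times in ALX-5407 (SD, n = 3 each). Slc7a5 made up 85.8% ± 1.38 of this sum in Th1 and 94.7% ± 0.314 in ALX-5407. Each of these ratios had a two-sided exact permutation p of 0.1, the smallest that 3 cultures against 3 allow. They were chosen after the values were seen, as were the other ratios between related carriers, 6 in all, and Benjamini-Hochberg adjustment over the 6 leaves each p at 0.1.

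**Figure D2:**
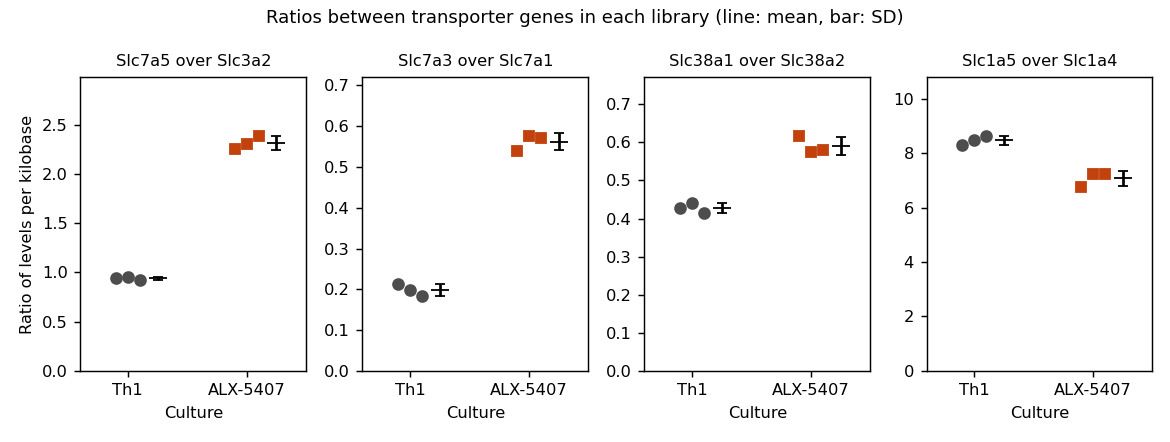
Ratio of the levels per kilobase of 4 pairs of related transporter genes in each library (points), with the mean and SD of the 3 libraries of each group (black) and each vertical axis from 0. The groups are apart in every panel: Slc7a5 over Slc3a2, Slc7a3 over Slc7a1 and Slc38a1 over Slc38a2 are higher in ALX-5407, and Slc1a5 over Slc1a4 is lower.

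Among the cationic carriers, the arginine and lysine carriers of the CAT type rose. Slc7a3 (CAT3), on chromosome X from 101079210 to 101086020 on the - strand, went from 12.6, 12.2 and 9.72 CPM in Th1 to 45.5, 47.8 and 49.9 CPM in ALX-5407. This was a 4.15-fold change (log2 fold change 2.05, standard error 0.104, adjusted p = 5.18e-10 in edgeR). Slc7a1 (CAT1), the CAT carrier found in most cells, was more abundant and changed less, from 180.3, 187.9 and 161.1 CPM to 256.7, 252.5 and 266 CPM (log2 fold change 0.55, adjusted p = 1.51e-05 in edgeR). The level of Slc7a3 per kilobase was 0.198 ± 0.0143 times that of Slc7a1 in Th1 and 0.562 ± 0.0201 times in ALX-5407 (SD, n = 3 each; exact permutation p = 0.1, the smallest possible). CAT2 (Slc7a2) had at most 2 reads in any library. Slc7a6 (y+LAT2), a light chain that exchanges cationic for neutral amino acids, did not pass the test at 52.1, 52 and 53.1 CPM in Th1 and 54.3, 55 and 60.1 CPM in ALX-5407, although the groups did not overlap (log2 fold change 0.11, adjusted p = 0.254 in edgeR). The related Slc7a7 (y+LAT1), with 30 to 43 and 46 to 56 reads, did not pass either (log2 fold change 0.28, standard error 0.298, adjusted p = 0.464 in edgeR). It shares 6.998% of its exon bases with opposite-strand Oxa1l, which had up to 3084 reads in a library. Slc38a9, the lysosomal carrier through which arginine is sensed by mTORC1, fell. It stood at 38.4 ± 2.86 CPM in Th1 and 28.6 ± 1.54 CPM in ALX-5407 (SD, n = 3 each), with no overlap between the groups (log2 fold change -0.43, standard error 0.0878, adjusted p = 0.000807 in edgeR).

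Slc7a11 (xCT), the light chain that takes up cystine in exchange for glutamate, had the highest fold change of all tested transporter genes. It lies on chromosome 3 from 49892526 to 50443614 on the - strand. It had 68, 57 and 60 reads in Th1 and 338, 373 and 335 reads in ALX-5407, or 2.09, 1.82 and 1.95 CPM against 9.57, 10 and 9.55 CPM. This was a 4.96-fold change (log2 fold change 2.31, standard error 0.158, adjusted p = 1.20e-08 in edgeR). Its level per kilobase was the lowest of the 26 tested genes in Th1, at 0.140 ± 0.00971 CPM per kilobase, overlapping with Slc36a3 above it, and in ALX-5407 it was 0.697 ± 0.0181 CPM per kilobase (SD, n = 3 each). The carriers of glutamate and aspartate of the SLC1 family, by contrast, were barely detected. Slc1a2 had 3 to 17 reads per library, Slc1a1 had 7 to 13, Slc1a3 had at most 2, and Slc1a6 and Slc1a7 had none.

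All 6 tested carriers of small neutral amino acids rose. Slc1a5 (ASCT2), which exchanges glutamine, serine, alanine and threonine, went from 143.4, 140.5 and 138.5 CPM to 263.4, 258.2 and 247.8 CPM (log2 fold change 0.87, standard error 0.0677, adjusted p = 5.44e-08 in edgeR). Slc1a4 (ASCT1), its close relative for alanine, serine and cysteine, lies on chromosome 11 from 20302180 to 20332713 on the - strand. It went from 16.2, 15.6 and 15.1 CPM to 36.7, 33.5 and 32.2 CPM, a 2.18-fold change (log2 fold change 1.12, standard error 0.0930, adjusted p = 9.29e-08 in edgeR). Slc1a5 remained the more abundant of the pair, by 8.47 ± 0.167 times in Th1 and 7.08 ± 0.283 times in ALX-5407 per kilobase (SD, n = 3 each; exact permutation p = 0.1, the smallest possible). The sodium-coupled carriers Slc38a1 (SNAT1) and Slc38a2 (SNAT2) are neighbours on chromosome 15, with 44478 bases between them. Slc38a1 went from 147, 155.5 and 156.8 CPM to 255, 241 and 254.6 CPM (log2 fold change 0.71, adjusted p = 4.79e-07 in edgeR). Slc38a2 changed least of the class, from 176.7, 181.2 and 194.1 CPM to 211.9, 215.3 and 225.5 CPM (log2 fold change 0.24, adjusted p = 0.00922 in edgeR). The ratio of Slc38a1 to Slc38a2 per kilobase was 0.427 ± 0.0130 in Th1 and 0.590 ± 0.0236 in ALX-5407 (SD, n = 3 each; exact permutation p = 0.1, the smallest possible). The next gene of this cluster, Slc38a4 (SNAT4), had 10, 4 and 7 reads in Th1 and 0 in every ALX-5407 library, too few to be tested. The proton-coupled Slc36a1 (PAT1) rose from 8.29, 8.68 and 9.03 CPM to 12.0, 12.4 and 14 CPM (log2 fold change 0.56, adjusted p = 0.00108 in edgeR), and Slc36a4 (PAT4) from 22.4 ± 0.978 to 29.8 ± 0.905 CPM (SD, n = 3 each; log2 fold change 0.41, adjusted p = 0.00102 in edgeR). Slc36a1, Slc36a2 and Slc36a3 lie side by side on chromosome 11, and of these neighbours Slc36a2 had no read and Slc36a3 had 8 to 28 reads per library, without passing the test (log2 fold change 0.30, standard error 0.525).

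The glutamine carriers of system N type did not follow the small neutral class. Slc38a3 (SNAT3), which moves glutamine, asparagine and histidine, fell from 11.0, 10.1 and 8.16 CPM to 5.89, 7.40 and 6.45 CPM. The lowest Th1 library lay above the highest treated one, and the fitted difference was -0.57 on the log2 scale (standard error 0.150, adjusted p = 0.00501 in edgeR). Slc38a7, a lysosomal exporter of glutamine and asparagine, stood at 15.1 ± 1.59 CPM in Th1 and 16.6 ± 0.592 CPM in ALX-5407 (SD, n = 3 each) and did not pass (log2 fold change 0.13, adjusted p = 0.342 in edgeR). Slc38a5 had no read and Slc38a8 had at most 2.

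Among carriers of other or unknown solutes, Slc43a3 and Slc38a10 rose and the other 5 tested did not pass. Slc6a6, the taurine carrier and the most abundant SLC6 transcript, stood at 156.5, 157.7 and 127 CPM in Th1 and at 158.2, 158 and 169.8 CPM in ALX-5407. The third Th1 library was well below the other two, and the log2 fold change of 0.14 did not pass (adjusted p = 0.192 in edgeR). The creatine carrier Slc6a8 had 84, 101 and 151 reads against 104, 109 and 127, with overlapping groups (log2 fold change -0.17, adjusted p = 0.575 in edgeR). Slc43a3, known as a carrier of purine nucleobases, rose from 36.7, 36 and 37 CPM to 55, 56.6 and 62.7 CPM (log2 fold change 0.67, adjusted p = 3.99e-06 in edgeR). Its neighbour on chromosome 2, the amino acid carrier Slc43a1, is 72984 bases away and did not pass, as described above. Slc38a10 went from 105.2, 101.1 and 99.9 CPM to 130.9, 120.9 and 118.6 CPM (log2 fold change 0.27, adjusted p = 0.00431 in edgeR). Slc38a6 and Slc7a4, with log2 fold changes of -0.075 and 0.013, overlapped between the groups and did not pass.

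**Figure D3:**
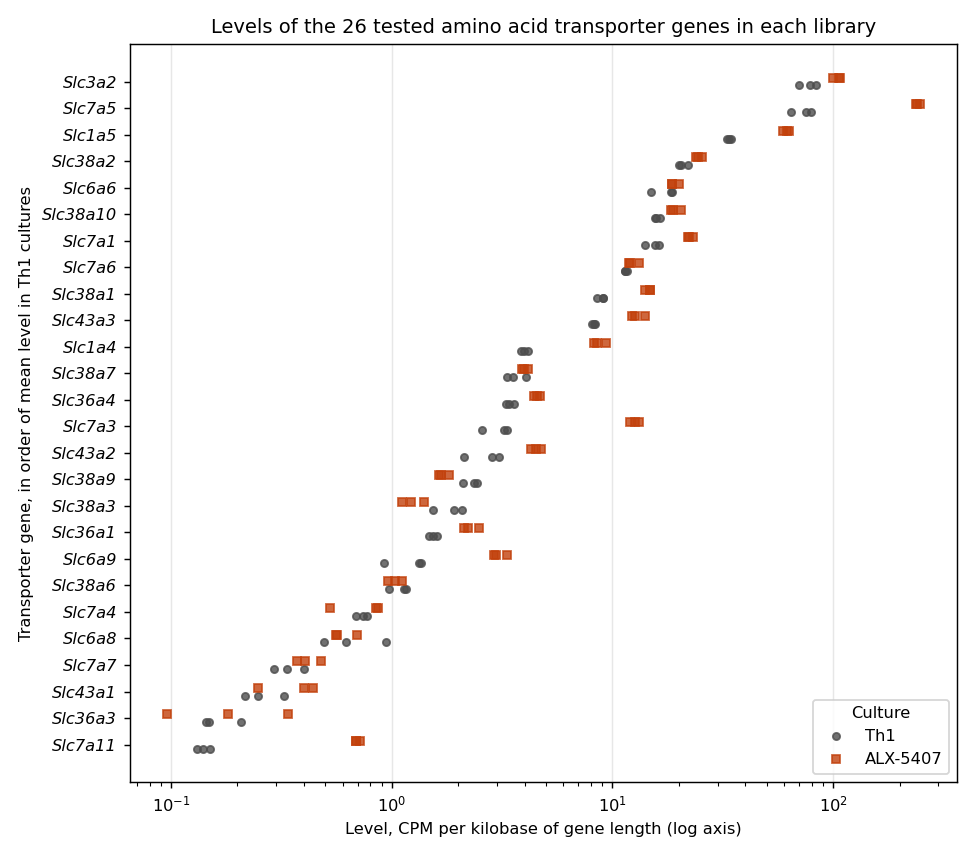
Level of the 26 tested transporter genes in each of the 6 libraries, in CPM per kilobase of gene length on a log axis, for Th1 (circles) and ALX-5407 (squares), ordered by the mean in Th1. Means run from 0.140 (Slc7a11) to 77.5 CPM per kilobase (Slc3a2) in Th1. The squares of Slc7a11, Slc7a3, Slc7a5, Slc6a9 and Slc1a4 lie farthest to the right of their circles, and the groups do not overlap for 19 of the 26 genes.

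Ordered by level per kilobase, Slc3a2 (77.5 ± 7.05 CPM per kilobase) and Slc7a5 (72.9 ± 7.60) came first in Th1 and overlapped between libraries (SD, n = 3 each). Slc1a5 (33.7 ± 0.599) and Slc38a2 (20.8 ± 1.03) followed without overlap. Next came Slc6a6, Slc38a10 and Slc7a1, between 15.3 and 17.4 CPM per kilobase, with neighbours in this order overlapping. In ALX-5407 the order was Slc7a5 (241.5 ± 4.94), Slc3a2 (104 ± 4.18), Slc1a5 (61.5 ± 1.89), Slc38a2 (24.6 ± 0.799) and Slc7a1 (22.4 ± 0.601), and no neighbours among these overlapped. Slc7a1 went from rank 7, where it overlapped with Slc38a10, to rank 5. Slc7a3 went from rank 14 to rank 10 and overlapped with both of its neighbours in each group, so that these ranks are not distinct. The 5 highest genes held 71.8% of the summed level of all 61 members in Th1 and 78.4% in ALX-5407. The share of Slc7a5 alone was 23.5% ± 1.08 in Th1 and 41.6% ± 0.481 in ALX-5407, while that of Slc3a2 was 25.01% ± 0.819 and 18.0% ± 0.553 (SD, n = 3 each).

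Summed over all 61 members, the level was 324.4, 315.7 and 288.9 CPM per kilobase in Th1 and 580.5, 585.3 and 573.3 in ALX-5407, a ratio of 1.87 ± 0.114 (error propagated from the SDs, n = 3 each). No test is given for such sums. By family, SLC7 went from 104 ± 9.01 to 290.8 ± 3.97 CPM per kilobase, a ratio of 2.80, and its share of the total from 33.5% to 50.2%. Most of this family's level was Slc7a5, which alone went from 72.9 to 241.5 CPM per kilobase, and 3 of the 7 tested SLC7 genes did not pass. SLC1 had a ratio of 1.86 ± 0.0742, SLC43 of 1.61 ± 0.0993, SLC36 of 1.37 ± 0.107, SLC3 of 1.35 ± 0.134, SLC38 of 1.22 ± 0.0228 and SLC6 of 1.18 ± 0.141. By substrate, the class of large neutral amino acids, in which Slc7a5 and Slc3a2 make up most of the level, had a ratio of 2.29 ± 0.233. This sum mixes carriers with the heavy chain Slc3a2, which light chains of other classes also use. Cystine and acidic carriers had a ratio of 3.56 ± 0.187 but a level of only 0.757 CPM per kilobase in ALX-5407. Slc7a11, the only tested gene of this class, made up 0.140 of 0.2125 in Th1 and 0.697 of 0.757 in ALX-5407. The class of dedicated glycine carriers, in which only Slc6a9 had reads, had 2.56 ± 0.548. Each gene was placed in a single class by its best-known substrate, so these ratios do not cover every carrier of a substrate. Small neutral carriers had a ratio of 1.603 ± 0.0261 and cationic carriers of 1.52 ± 0.0856. Those of system N type (0.954 ± 0.104) and those of taurine, creatine, GABA and betaine (1.09 ± 0.123) had ratios within their error of 1. Scaled as TPM, which sets the sum over all genes per kilobase equal in every library, the median of all genes tested moved up by 0.18 on the log2 scale, and the ratios of these sums moved with it, that of the system N type to 1.08.

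**Figure D4:**
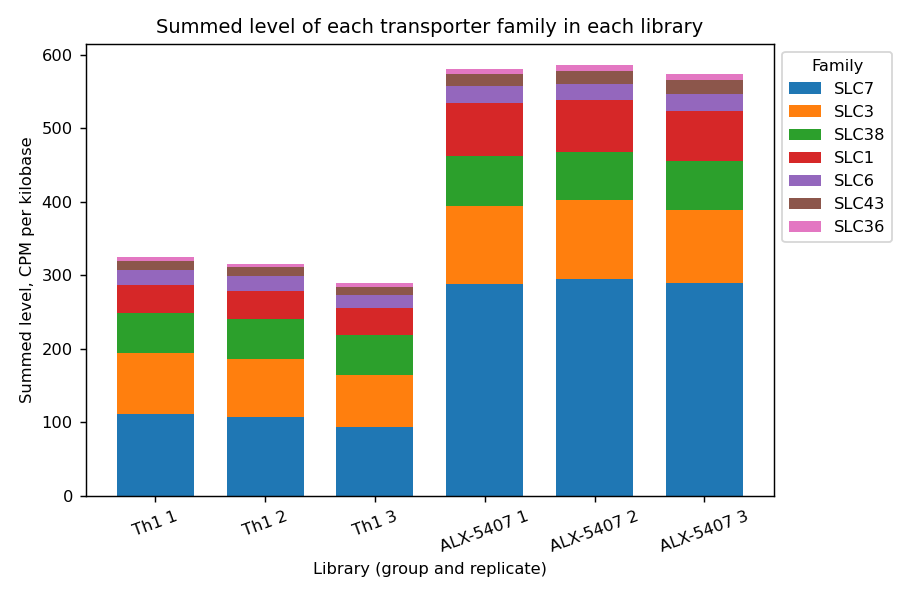
Summed level of the 7 transporter families in each library, in CPM per kilobase, stacked from 0. The whole bars run from 288.9 to 324.4 in the Th1 libraries and from 573.3 to 585.3 in the ALX-5407 libraries, and the SLC7 part, at the base, takes up most of the difference.

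The third Th1 library gave the lowest CPM of its group for 15 of the 26 tested genes, and the other 2 Th1 libraries for 6 and 5. No call was lost without that library. With 1 library left out in turn, Slc6a9 ranged from 1.18 to 1.44 on the log2 scale, Slc43a2 from 0.60 to 0.85 and Slc38a3 from -0.70 to -0.48.

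Promoter windows were searched for the letters TGATGNAA, the C/EBP-ATF response element through which ATF4 is known to act, and for the E-box CACGTG, on both strands. The windows, from RefSeq on GRCm38.p6, cover 250 bases before and 50 bases after each start of a gene, and a gene was counted if any of its windows held the letters. They were at hand for 17 of the 26 tested genes, and Slc1a5, Slc38a1, Slc38a3, Slc43a3, Slc6a6, Slc6a8, Slc7a3, Slc7a4 and Slc7a5 were not searched. TGATGNAA was found for 3 of the 17 (17.6%), beside 2.73% of all tested genes with a window and 4.51% of all genes of the table. The 3 genes were Slc7a11 and Slc1a4, which rose, and Slc7a7, which did not pass the test. The E-box was found for 3 of the 17, Slc36a1, Slc38a7 and Slc43a1, beside 11.5% of all tested genes with a window, and overlapped no TGATGNAA match. The windows of the genes with TGATGNAA are shown because these are 2 of the 5 genes that rose over 2-fold and a relative that did not pass, with the matched letters in capitals, 5′ to 3′ on the gene's own strand. They are chr3:50443564-50443863 for Slc7a11, chr11:20332664-20332963 for Slc1a4 and chr14:54417895-54418194 for Slc7a7, the first of its windows, all on the - strand.
Slc7a11: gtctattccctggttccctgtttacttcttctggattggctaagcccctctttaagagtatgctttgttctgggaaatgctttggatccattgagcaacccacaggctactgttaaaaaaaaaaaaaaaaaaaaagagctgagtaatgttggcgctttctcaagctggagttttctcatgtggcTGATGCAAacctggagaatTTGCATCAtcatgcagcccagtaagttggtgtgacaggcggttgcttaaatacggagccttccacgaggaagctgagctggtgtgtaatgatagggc
Slc1a4: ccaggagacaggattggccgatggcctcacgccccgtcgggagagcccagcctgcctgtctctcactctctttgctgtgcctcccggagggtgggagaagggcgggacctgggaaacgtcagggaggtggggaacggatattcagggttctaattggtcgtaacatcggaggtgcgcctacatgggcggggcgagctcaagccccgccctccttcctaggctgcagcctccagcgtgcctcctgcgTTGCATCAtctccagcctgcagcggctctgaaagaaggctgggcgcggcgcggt
Slc7a7: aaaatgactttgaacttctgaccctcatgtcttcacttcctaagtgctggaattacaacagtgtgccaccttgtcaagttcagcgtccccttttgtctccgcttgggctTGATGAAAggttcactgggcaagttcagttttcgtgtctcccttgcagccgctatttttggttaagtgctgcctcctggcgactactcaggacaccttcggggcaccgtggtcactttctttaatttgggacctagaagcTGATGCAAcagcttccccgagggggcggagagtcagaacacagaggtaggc
Slc7a11 holds 2 matches, on opposite strands, with first bases at -66 and -47 from the gene's start. In Slc1a4 a single match on the opposite strand begins at -4 and runs across the start. In Slc7a7 the matches begin at -141 and -1 from the start used for this window. The window lies wholly outside the coordinates of the counted gene, 54369442 to 54417780. From the start of the next Slc7a7 window, the second match stands at -243. The letters TGATGCAA, or their reverse complement, occur in all 3 windows. Neither motif was in the windows of Slc3a2, Slc7a1, Slc38a2, Slc6a9, Slc36a4, Slc43a2 and Slc38a10, which all rose. This says only that these letters are not in these windows of 300 bases.

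Amino acid carriers whose symbols fall outside the rule, among them Slc6a20a and Slc6a20b of the SLC6 family, were taken from a list of 28 genes, 24 of which had enough reads. In the same edgeR test 10 of them rose and 5 fell (41.7% and 20.8%, beside 24.5% and 23.2% of all genes tested). Their median log2 fold change was 0.19. At the cell surface Slc16a10 (TAT1), a uniporter of aromatic amino acids, had 338, 372 and 346 reads in Th1 and 1350, 1677 and 1698 in ALX-5407 (log2 fold change 1.98, standard error 0.106, adjusted p = 9.71e-10 in edgeR), and it was the only one of 4 tested surface carriers to pass. Among carriers of lysosomes and vesicles, the vesicular glutamate transporter Slc17a6 fell from 50.6 ± 4.70 to 9.69 ± 2.44 CPM (SD, n = 3 each; log2 fold change -2.39, adjusted p = 2.27e-09 in edgeR), the proton-coupled peptide and histidine carrier Slc15a3 fell (log2 fold change -0.95), and the lysosomal cationic carrier Pqlc2 rose by 0.75. Slc17a7 and Slc17a5 also rose, by 1.08 and 0.54 on the log2 scale. Of 11 tested mitochondrial carriers, 6 rose and 3 fell. The ornithine carrier Slc25a15 rose by 0.94, the branched-chain amino acid carrier Slc25a44 by 0.71 and the aspartate-glutamate carriers Slc25a12 and Slc25a13 by 0.61 and 0.46. The mitochondrial serine carrier Sfxn1 rose by 0.29 (adjusted p = 0.00363 in edgeR) and its relative Sfxn2 by 0.57. The mitochondrial glycine carrier Slc25a38, unlike Slc6a9, fell from 18.5 ± 1.41 to 13.2 ± 1.74 CPM (SD, n = 3 each; log2 fold change -0.48, standard error 0.118, adjusted p = 0.00293 in edgeR). The glutamate carrier Slc25a22 fell by 0.67 and Sfxn3 by 0.32 on the log2 scale.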

How the data were processed

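RNA sequencing counts were analysed for 6 cultures of mouse CD4+ T cells, 3 per group. The deposited values are raw counts, whole numbers of reads per gene with no normalization by the authors. Per the labels, processing used fastp, HISAT2 2.0.5, featureCounts 1.5.0-p3 and mm10, and the annotation release and the use of strand are not given in the sources used here. Opposite-strand overlaps are therefore reported as uncertain. The deposited gene lengths in bases, another column of the same table, gave levels per kilobase. All 61 members are in GENCODE M21 (GRCm38), 59 with the same coordinates. For 58 the deposited length equals the merged exons of all annotated transcripts, which can differ from the length of the transcripts expressed. Orders and ratios between genes per kilobase depend on these lengths.

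edgeR 4.0.16 (R 4.3.3) was run with filterByExpr (minimum count 10, minimum total 15), TMM normalization, the quasi-likelihood test on 15938 genes and Benjamini-Hochberg adjustment, and was tested on simulated data. Standard errors came from the fold change and its F statistic. Alternatives were DESeq2 1.42.0, limma 3.58.1 (voom), RLE and upper-quartile normalization, other filters, a replicate block, libraries left out, and TPM. Some marker genes are not reported here. The members and lists were chosen with earlier results of these data known. Values in every library are given for Slc6a9, Slc3a2, members that passed with an absolute log2 fold change of at least 0.5 and the 8 members with the highest level; other values were chosen after they were seen. Substrate classes follow the best-known substrate. Depth was 30801753 to 36727788 counts per library. Libraries of 1 group were never closer than counting error allows, with a chi-square per degree of freedom of 5.65 to 22.4. The labels call them biological replicates without saying whether animals differed, so p-values measure only the spread between these samples.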

Additional observations from a re-analysis of the deposited data

How the results depend on the processing

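The counts of transporter genes that rose (15), fell (2) and rose over 2-fold (5) were the same with each library left out in turn, and no setting moved the first or the third by over 1.5 times. With no filter on low counts, 4 genes were lower instead of 2, and 2 of them had an absolute log2 fold change over 1 where the filter left 0. The added genes were Slc38a4 (adjusted p = 0.00477 in edgeR) and Slc6a13 (adjusted p = 0.0295), with at most 13 reads in any library. All 17 calls held in all 13 settings, with a highest adjusted p of 0.0497 for Slc38a2. Of the fold changes under other settings, 326 kept their direction and their side of the threshold and 11 changed sign, all of genes that did not pass the test. The cause was not tested. Slc7a4 had -0.001 under RLE normalization and in DESeq2, -0.041 under upper-quartile normalization, -0.008 with the stricter filter, -0.029 in limma-voom, -0.011 with the replicate block, and -0.104 to 0.22 with 1 library left out. Slc6a8 ranged from -0.368 to 0.109 and Slc36a3 from -0.243 to 0.646 with 1 library left out.

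The ratio of summed levels was higher as TPM throughout, at 2.12 for all members, 2.10 for SLC1, 1.53 for SLC3, 1.34 for SLC6, 3.17 for SLC7, 1.55 for SLC36, 1.38 for SLC38 and 1.82 for SLC43. By class it was 1.73 for cationic, 4.03 for cystine and acidic, 1.08 for system N type, 2.59 for large neutral, 1.81 for small neutral, 1.24 for taurine, creatine, GABA and betaine, and 1.49 for the remaining carriers. On that scale 24 of the 26 tested genes were above 0 against 22, as Slc38a6 and Slc6a8 changed sign, while Slc38a9 and Slc38a3 stayed lower. With library totals and no scaling factor, the ratio was 1.94 for SLC1, 1.27 for SLC38, 1.67 for small neutral and 1.36 for the remaining carriers. With the replicate number as a block (replicate block), the counts of members were again 15, 2 and 5. Libraries with the same number did not deviate together (correlations across genes of -0.008, 0.004 and 0.063), so the numbers were not taken as pairs. Genes with few reads, such as Slc36a3 and Slc43a1, have wide errors at this depth.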
